A study of Homo sapiens with 12 samples.

Results

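XBP1 and 9 genes whose products act in the endoplasmic reticulum (ER) were followed through poly(A) RNA sequencing of NCM460. This human cell line was derived from normal colonic epithelium. The members were the 10 genes named XBP1, ERN1, HSPA5, HSP90B1, DNAJB9, SDF2L1, EDEM1, HERPUD1, PDIA4 and CALR, and all 10 were found by name among the 58735 genes of the deposited table. The 12 libraries fell into 4 groups of 3. The medium group was wild-type cells kept in medium, the TNF-α group was wild-type cells given tumour necrosis factor α, the Bufotenidine group was wild-type cells given TNF-α together with Bufotenidine (5-hydroxy-N,N,N-trimethyltryptamine), and the knockdown group was cells with HTRA2 knockdown given TNF-α. The labels gave neither dose nor time. They named no control siRNA for the TNF-α libraries, although the study's legend for the knockdown comparison names one, and if the TNF-α libraries were not transfected, transfection and loss of HTRA2 cannot be told apart. The labels also did not say that the libraries of a group came from separate cultures, so p-values measure the spread between these samples. In bulk RNA, a lower level in each cell and fewer cells with that level cannot be told apart.

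The ER folds secreted and membrane proteins, and a surplus of unfolded protein sets off the unfolded protein response. The sensor IRE1, encoded by ERN1, then cuts a short stretch out of XBP1 mRNA, and the rejoined message encodes the active XBP1 transcription factor. Another sensor, ATF6, is released by proteolysis, and PERK slows translation and raises ATF4. XBP1 and ATF6 switch on genes for chaperones, folding enzymes and the machinery that returns misfolded proteins to the cytosol, a programme that intestinal epithelium needs for its secretory cells.

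The values were FPKM, fragments scaled to gene length and to the total mapped. Comparisons of levels between genes are approximate, because the gene length used for XBP1, 3028 bases, exceeded its 1850-base unspliced transcript. Between libraries, the values also differed in GC dependence, as given below. The 10 genes spanned mean levels from 2.87 FPKM for DNAJB9 to 222 FPKM for CALR, and all 10 were among the 18079 genes with a mean of at least 0.1 FPKM that were tested. Read counts recovered from FPKM and gene length ran from 120 for DNAJB9 in medium 2 to 32669 for HSPA5 in TNF-α 3.

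The stretch that IRE1 removes is shown because it decides which XBP1 protein is made and because these data cannot see it. Of 7 XBP1 transcripts annotated in GENCODE 29, 4 held the stretch and 2 were joined without it. Bases 567 to 592 of the 1850-base unspliced transcript are in capitals here, with 17 bases on each side.
XBP1: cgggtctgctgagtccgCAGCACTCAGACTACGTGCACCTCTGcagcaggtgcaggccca
The 26 capital bases are missing from the annotated 1794-base spliced transcript, which also starts 25 bases later and ends 5 bases earlier. Because the ends of the stretch repeat each other, 7 placements give the same joined sequence, and the one shown cuts after the G at position 3 of each CNGCAGN loop that IRE1 recognises. They make up 0.859% of the 3028 bases of gene length used for FPKM. The XBP1 level reported here is therefore the sum of the unspliced and spliced messages, and no value for the spliced share was computed.

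Elements through which XBP1 and ATF6 can act include the ER stress response element, ERSE, which reads CCAAT, any 9 bases, then CCACG. Another is ERSE-II, which reads ATTGG, any base, then CCACG. Both motifs were searched on both strands in RefSeq promoters of build GRCh38.p14, from 250 bases before to 50 bases after each start site. All 10 genes matched the table, with the start site nearest the gene start used where a gene had more than 1. ERSE was found in 4 members (XBP1, HSPA5, HSP90B1 and CALR) and ERSE-II in 2 (SDF2L1 and HERPUD1). By comparison, ERSE was present in 27 of 35116 promoters (0.0769%) and ERSE-II in 19 (0.0541%). The CCAAT pentamer alone, which is part of both motifs, was present in all 10 members and in 34.6% of promoters. Neither motif was present in the windows of ERN1, DNAJB9, EDEM1 and PDIA4. Other elements that XBP1 or ATF6 may bind were not searched. Relative to the start site used, the deposited gene start lay at -675 bases for ERN1, -306 for DNAJB9, -303 for HSP90B1 and -151 for PDIA4. The windows of ERN1, DNAJB9 and HSP90B1 thus lay inside the gene as deposited. Sequence before that gene start was not searched for them, so a lack of matches there is not shown. Each match follows with the motif in capitals and the sequence in the direction of transcription.
XBP1, chr22:28800598-28800657, minus strand: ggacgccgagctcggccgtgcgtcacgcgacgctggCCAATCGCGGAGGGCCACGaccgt
HSPA5, chr9:125241371-125241430, minus strand: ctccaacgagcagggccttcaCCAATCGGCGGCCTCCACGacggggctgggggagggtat
CALR, chr19:12938363-12938422, plus strand: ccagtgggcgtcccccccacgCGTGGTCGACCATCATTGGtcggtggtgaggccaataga
HSP90B1, chr12:103930210-103930239, plus strand: ccctgaCCAATCGGAAGGAGCCACGcttcg
HSP90B1, chr12:103930315-103930344, plus strand: tgggtgCGTGGTGCGGCGCGATTGGtgggt
SDF2L1, chr22:21642089-21642148, plus strand: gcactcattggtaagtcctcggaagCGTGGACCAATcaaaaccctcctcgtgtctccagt
HERPUD1, chr16:56931988-56932047, plus strand: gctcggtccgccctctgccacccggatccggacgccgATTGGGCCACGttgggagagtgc
The motif of XBP1 ended 34 bases before its start site and that of HSPA5 48 bases before, whereas that of CALR lay farthest, from 225 to 207 bases before. The motifs of CALR and SDF2L1 and the second of HSP90B1 read as ERSE or ERSE-II on the opposite strand. A match of letters describes the window and does not show that a factor binds there.

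Total reads on genes ranged from 31008429 to 37624399 per library, and the share on the mitochondrial genome from 2.95% in knockdown 2 to 4.68%. HTRA2, which encodes a mitochondrial serine protease, checked the labels: it stood at 7.44, 7.18 and 7.22 FPKM in the 3 knockdown libraries and between 13.3 and 17.2 FPKM in the other 9. Its log2 fold change against TNF-α was -0.98 ± 0.09 (SE; adjusted p = 2.77e-05). The epithelial markers KRT8 (887 to 1315 FPKM) and EPCAM (58.6 to 84.9 FPKM) were high in every library. So were KRT18, CDH1 (53.3 to 88.4 FPKM) and CLDN4 (38.0 to 54.7 FPKM). KRT19, of the same list, was low at 1.91 to 4.35 FPKM. The 6 colon markers CDX1, CDX2, VIL1, LGALS4, CDH17 and KRT20 reached at most 0.179 FPKM and CDX2 had 0 reads throughout, so the markers that define colonic epithelium were at or near 0. The summed level of 8 markers of secretory and plasma cells, which are rich in XBP1, was 0.327 to 1.13 FPKM in medium, 0.805 to 0.883 with TNF-α, 0.686 to 0.999 with Bufotenidine and 1.47 to 1.59 in the knockdown, with TFF3 at 0 reads throughout. This sum was led by the single gene PRDM1 (0.136 to 1.35 FPKM). The other markers in it reached at most 0.378 FPKM, in JCHAIN. Summed fibroblast markers were at most 1.46 FPKM outside the knockdown and 2.63 to 3.24 FPKM in it, nearly all of it COL1A1, with DCN at 0 reads. Endothelial markers, led by CDH5, summed to 0.491 to 0.597 FPKM in medium, 1.42 to 1.57 with TNF-α, 1.77 to 2.01 with Bufotenidine and 2.21 to 3.62 in the knockdown, and so moved with TNF-α as well. Immune markers summed to 0.231 to 0.524 FPKM in medium, 0.0711 to 0.207 with TNF-α, 0.231 to 0.332 with Bufotenidine and 0.356 to 0.740 in the knockdown, with CD3E at 0 reads. The secretory, fibroblast and endothelial sums were higher in the knockdown than in every other library, while the immune sums overlapped those of medium. The part of these markers in the TNF-α and knockdown results was not tested.

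**Figure D1:**
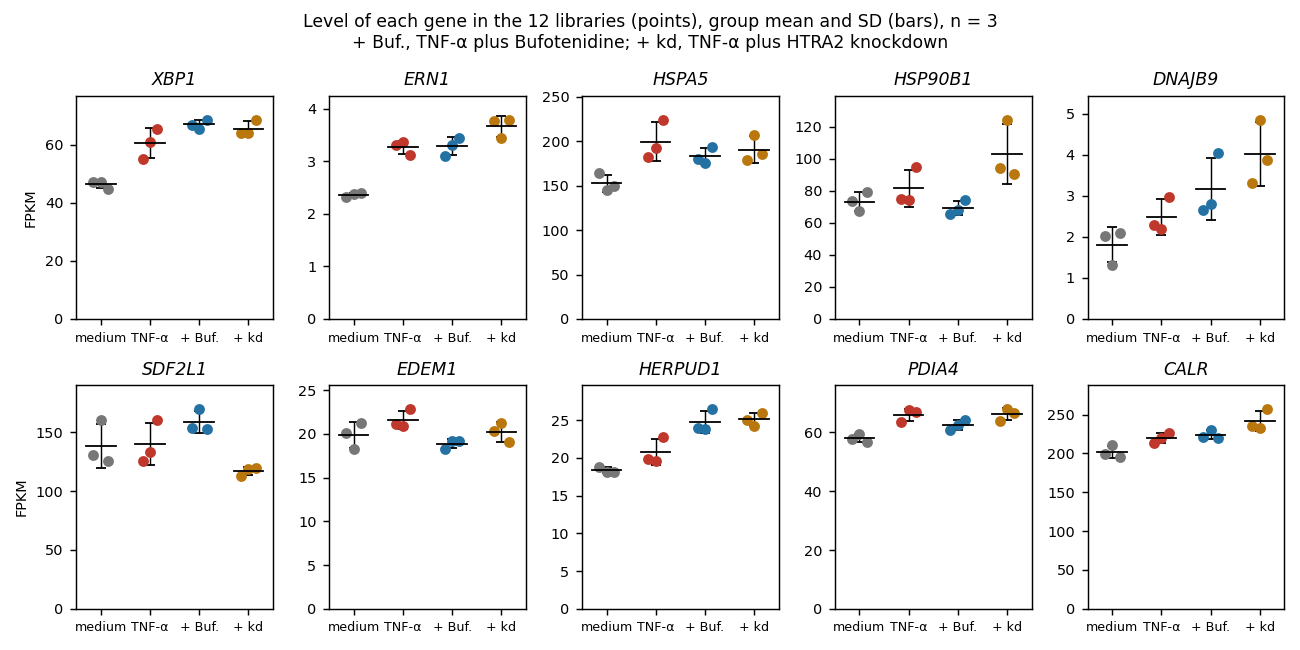
FPKM of the 10 genes (y axes, each from 0) in the 12 libraries, with points for libraries and bars for the group mean and SD, n = 3. All TNF-α-treated libraries lie above the medium libraries for XBP1 and ERN1, while HSP90B1 and SDF2L1 spread within groups.

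The level of XBP1 rose with TNF-α. It measured 47.1, 47.2 and 44.9 FPKM in medium and 55.1, 61.0 and 65.5 FPKM with TNF-α, groups that did not overlap. The fitted log2 fold change was 0.38 ± 0.07 (SE, n = 3 per group; 95% interval 0.23 to 0.53; adjusted p = 0.00587 by limma over all genes tested). XBP1 reached 66.9, 65.4 and 68.7 FPKM with Bufotenidine and 63.9, 64.2 and 68.6 FPKM in the knockdown. The order of group means was medium, TNF-α, knockdown and Bufotenidine, and only the step from medium to TNF-α separated neighbours without overlap.

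ERN1, which encodes the kinase and RNase that processes XBP1, showed the same first step at a much lower level. Its FPKM were 2.32, 2.37 and 2.40 in medium and 3.31, 3.37 and 3.13 with TNF-α, which is 0.45 ± 0.08 higher on the log2 scale (adjusted p = 0.00612). With Bufotenidine the values were 3.11, 3.32 and 3.44 FPKM, a difference from TNF-α of 0.01 ± 0.08 (95% interval -0.17 to 0.18), and they were 3.76, 3.44 and 3.80 FPKM in the knockdown. Every one of the 9 libraries given TNF-α was above every medium library. The 3 knockdown libraries were above the 3 TNF-α libraries, but the fitted difference of 0.16 ± 0.08 (95% interval -0.01 to 0.34) had an adjusted p of 0.196.

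HSPA5 encodes BiP, the main HSP70 chaperone of the ER. It measured 164, 145 and 149 FPKM in medium and 182, 192 and 224 FPKM with TNF-α, again without overlap. The log2 fold change was 0.38 ± 0.09 (adjusted p = 0.0313). This call was lost when medium 2 (adjusted p = 0.106), medium 3 (0.0937), TNF-α 2 (0.0701) or TNF-α 3 (0.115) was left out, with fold changes of 0.30 to 0.41 on the log2 scale. It also fell short with the replicate number as a block (adjusted p = 0.0640), with no filter on low values (0.0804), under quantile normalization (0.137), with no trend in the spread (0.0796) and when only the 2 groups were fitted (0.138). HSPA5 was 180, 176 and 193 FPKM with Bufotenidine and 179, 207 and 185 FPKM in the knockdown, and those 2 groups overlapped each other and the TNF-α group.

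XBP1, ERN1 and HSPA5 were thus the 3 of 10 members that rose with TNF-α, and none fell. Over all 18079 genes tested, 3.22% were called higher and 0.885% lower in this comparison. The fold changes of all 10 members were above 0, with a median of 0.18 on the log2 scale against -0.002 over all genes. PDIA4, a protein disulfide isomerase, went from 57.9, 59.6 and 56.7 FPKM in medium to 63.7, 67.6 and 66.9 FPKM (0.19 ± 0.05, adjusted p = 0.0819). HERPUD1, a membrane protein of the ER-associated degradation (ERAD) complex, changed by 0.17 ± 0.07 on the log2 scale (adjusted p = 0.255) and CALR, the lectin chaperone calreticulin, by 0.12 ± 0.06 (adjusted p = 0.393). DNAJB9 had a difference of 0.45 ± 0.21 (adjusted p = 0.358). For these 4 genes the groups did not overlap although the test across genes was not passed. The share of all genes tested that separate in this way was not counted, so the separation adds no support. HSP90B1, EDEM1 and SDF2L1 had overlapping groups and differences of 0.15 ± 0.13, 0.12 ± 0.07 and 0.01 ± 0.10.

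A wider view, taken after the values were seen, set all 9 libraries given TNF-α against the 3 medium libraries. For 7 of 10 members the lowest of the 9 was above the highest medium library, and for none the reverse held. Across all genes tested, 5.21% showed the first pattern and 1.81% the reverse. The 7 were XBP1, ERN1, HSPA5, DNAJB9, HERPUD1, PDIA4 and CALR. The other 3, HSP90B1, SDF2L1 and EDEM1, overlapped the medium libraries.

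**Figure D2:**
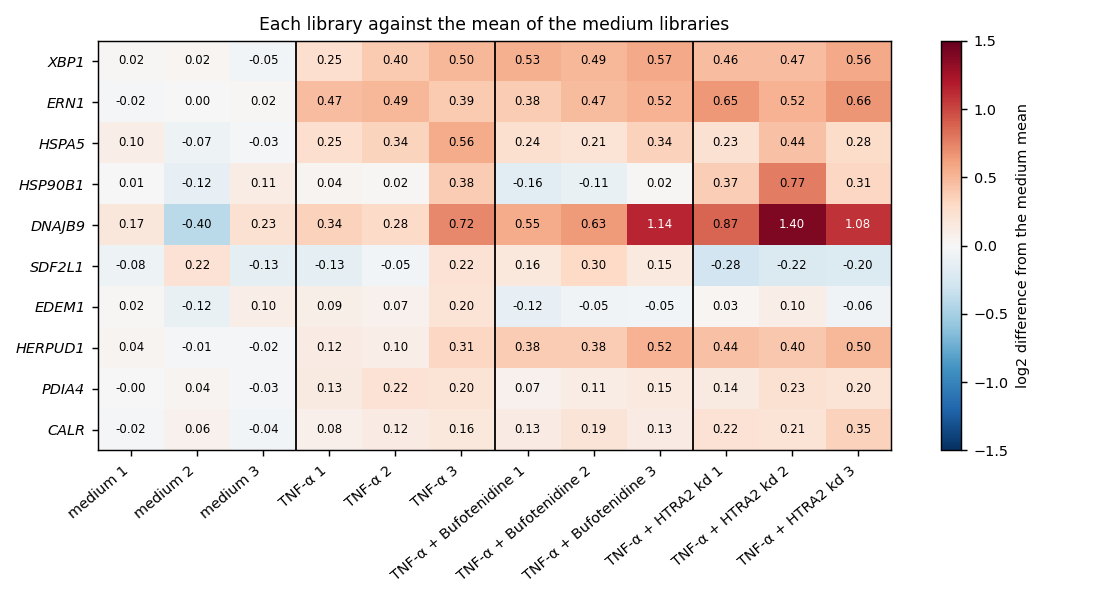
Log2 difference of each library from the mean of the 3 medium libraries for the 10 genes (rows), with libraries as columns and colour and printed value giving the difference. DNAJB9 is highest at 1.40 in knockdown 2, and SDF2L1 is the only gene below 0 in all 3 knockdown libraries.

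With Bufotenidine added to TNF-α, no member passed the test. Only 0.0332% of all genes were called higher and 0.00553% lower, and the members' median log2 fold change was 0.02 against 0 over all genes. The nearest to a change was HERPUD1, which was 19.9, 19.6 and 22.8 FPKM with TNF-α and 23.9, 23.9 and 26.5 FPKM with Bufotenidine, without overlap. Its log2 fold change was 0.25 ± 0.07 (95% interval 0.10 to 0.41; adjusted p = 0.114). EDEM1, which directs misfolded glycoproteins to degradation, was 21.2, 20.9 and 22.8 FPKM with TNF-α and 18.3, 19.2 and 19.2 FPKM with Bufotenidine. This difference of -0.19 ± 0.07 also separated the groups but had an adjusted p of 0.169. The XBP1 difference was 0.15 ± 0.07 (limma adjusted p = 0.242), with groups that overlapped at 65.4 and 65.5 FPKM. HSP90B1 was lower with Bufotenidine in every library (-0.23 ± 0.13, adjusted p = 0.337), by the narrow gap of 74.3 against 74.4 FPKM. The share of all genes tested that separate was not counted in this or the later comparisons, so separation adds no support there either. For HSPA5 the 95% interval of the difference ran from -0.31 to 0.07, and for CALR from -0.10 to 0.16, so that changes within these bounds in either direction were compatible with the spread.

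The Bufotenidine comparison moved with the base composition of the genes. Across 11180 genes with a mean of at least 1 FPKM, the log2 fold change against TNF-α and the GC content of the longest annotated transcript had a Pearson r of 0.60, compared with -0.12 for TNF-α against medium, 0.07 for the knockdown against TNF-α and -0.35 for the knockdown against Bufotenidine. Genes are not independent replicates, and the part of GC content in these differences was not tested beyond a correction. The members ranged in GC content from 40.4% for DNAJB9 to 65.5% for SDF2L1. When the trend on GC content was removed from each library, a setting added after the data were seen, the Bufotenidine difference of XBP1 went from 0.15 to 0.31 (adjusted p = 0.174) and that of SDF2L1 from 0.19 to -0.03 (adjusted p = 0.919). HERPUD1, at 47.9% GC near the median of 48.7%, went from 0.25 to 0.28 (adjusted p = 0.129). No member passed the test with the correction either. As deposited, 3 of the 10 members had an unadjusted limma p under 0.05 in this comparison, namely XBP1, EDEM1 and HERPUD1, as had 20.1% of all genes tested, and voom on the recovered reads also called 0 members.

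Single libraries differed in the same way within groups. The deviation of a library from its own group's mean had an r with GC content of 0.58 in medium 2, -0.47 in medium 3 and -0.54 in knockdown 2, and lay between -0.17 and 0.39 in the other 9. Knockdown 2 was also the library farthest from its group, with a root mean square deviation of 0.22 on the log2 scale. In medium 2, DNAJB9 lay -0.40 and HSP90B1 -0.12 from the group mean on the log2 scale, while SDF2L1 lay 0.22 above it. In knockdown 2, DNAJB9 and HSP90B1 both lay 0.29 above the group mean. XBP1, at 41.5% GC, deviated by 0.02 in medium 2 and by -0.03 in knockdown 2.

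**Figure D3:**
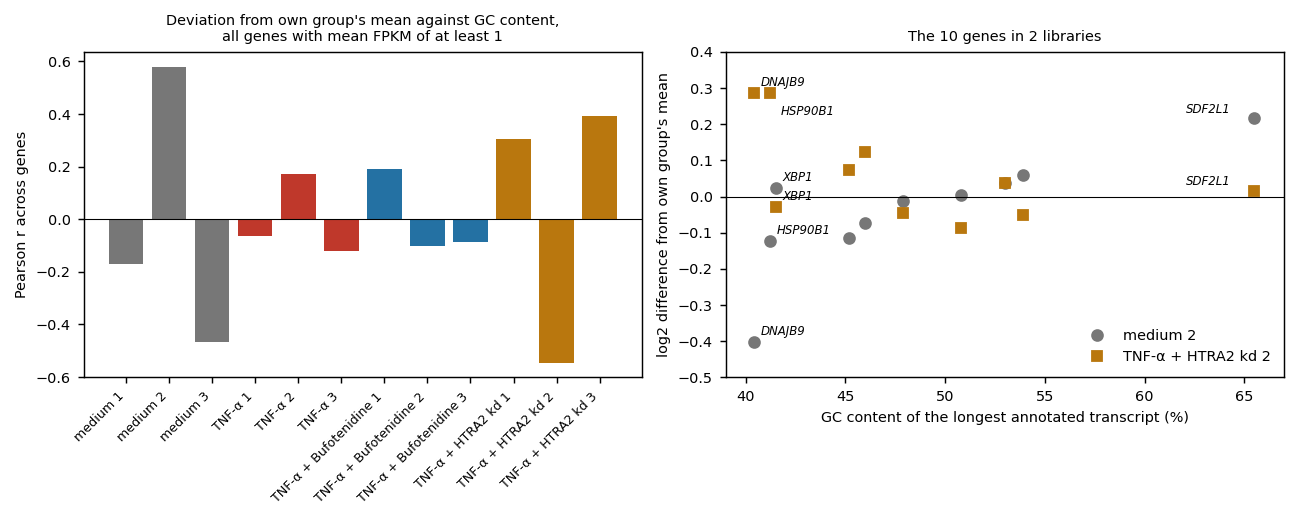
Left, Pearson r across 11180 genes between a library's log2 deviation from its group mean and transcript GC content, as bars for the 12 libraries. Right, the same deviation of the 10 genes (y axis, log2) against their GC content in percent in medium 2 (circles) and knockdown 2 (squares), with DNAJB9 at -0.40 and 0.29.

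In the HTRA2 knockdown against TNF-α, DNAJB9 and HERPUD1 rose and no member fell. Among all genes tested, 9.35% were called higher and 8.08% lower, and the members' median was 0.13 against -0.003 over all genes. DNAJB9, an ER J-domain co-chaperone of BiP, was 2.28, 2.18 and 2.98 FPKM with TNF-α and 3.32, 4.86 and 3.87 FPKM in the knockdown. The log2 fold change was 0.67 ± 0.21 (adjusted p = 0.0482), the largest of any member in any of the 4 comparisons and also the one with the widest error. The call was lost when TNF-α 1 (adjusted p = 0.128), TNF-α 2 (0.153), knockdown 1 (0.0548), knockdown 2 (0.139) or knockdown 3 (0.0943) was left out, with fold changes of 0.53 to 0.80 over all 6 omissions. In medium the gene was at 2.01, 1.32 and 2.09 FPKM, and with Bufotenidine at 2.65, 2.81 and 4.04 FPKM. Its reads numbered 120 to 497, and its gene overlaps PNPLA8 by 99 bases and THAP5 by 183 bases on the opposite strand, which a kit that does not mark strand cannot separate.

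HERPUD1 was 25.0, 24.3 and 26.0 FPKM in the knockdown, above all 3 TNF-α libraries. The log2 fold change was 0.27 ± 0.07 (adjusted p = 0.0194). It fell short without TNF-α 1 (adjusted p = 0.0722), TNF-α 2 (0.0814), knockdown 1 (0.0572) or knockdown 3 (0.0627), while its size stayed between 0.24 and 0.34. Its medium (18.8, 18.2 and 18.1 FPKM), TNF-α and Bufotenidine libraries were separated from one another without overlap. Only Bufotenidine and the knockdown overlapped, with a difference of 0.02 ± 0.07. Neither the step from medium to TNF-α (limma adjusted p = 0.255) nor that from TNF-α to Bufotenidine (0.114) passed the test.

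HSP90B1 encodes GRP94, the HSP90 of the ER, and SDF2L1 a partner of DNAJ co-chaperones there. HSP90B1 measured 73.8, 67.3 and 79.2 FPKM in medium, 75.3, 74.4 and 95.1 FPKM with TNF-α, 65.7, 68.0 and 74.3 FPKM with Bufotenidine and 94.5, 125 and 90.7 FPKM in the knockdown. SDF2L1 measured 130, 160 and 126 FPKM in medium, 126, 134 and 160 FPKM with TNF-α, 154, 170 and 153 FPKM with Bufotenidine and 113, 118 and 120 FPKM in the knockdown. The 2 genes thus stood at opposite ends, with HSP90B1 highest and SDF2L1 lowest in the knockdown.

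Between the knockdown and Bufotenidine, both of which carried TNF-α, HSP90B1 was higher and SDF2L1 lower in the knockdown and the other 8 members did not pass the test. Of all genes tested, 7.85% were called higher and 7.43% lower, and the members' median was 0.09 against 0.01. The HSP90B1 difference was 0.56 ± 0.13 (adjusted p = 0.0129) with no overlap. Without knockdown 2, the library with the highest HSP90B1, it was 0.42 (adjusted p = 0.0360). It fell just short without Bufotenidine 1 (0.0546) or Bufotenidine 2 (0.0503). The SDF2L1 difference was -0.44 ± 0.10 (adjusted p = 0.0171), also without overlap, and fell short without Bufotenidine 2 (0.0739) or knockdown 1 (0.0589). With the GC correction the SDF2L1 value was -0.24 (adjusted p = 0.0908) and the HSP90B1 value 0.42 (adjusted p = 0.00694).

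Against TNF-α alone, neither gene passed: HSP90B1 differed by 0.33 ± 0.13 (adjusted p = 0.0932) and SDF2L1 by -0.25 ± 0.10 (adjusted p = 0.128). Both passed with the GC correction, at 0.35 (adjusted p = 0.0113) and -0.27 (adjusted p = 0.0449), and HSP90B1 passed without TNF-α 3 at 0.45 (adjusted p = 0.0411). HSP90B1 overlaps C12orf73, which averaged 1.86 FPKM, by 3444 bases on the opposite strand. The part of this overlap in the HSP90B1 values was not tested. All comparisons with the knockdown or Bufotenidine group share libraries with another comparison, so their values are not separate measurements.

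**Figure D4:**
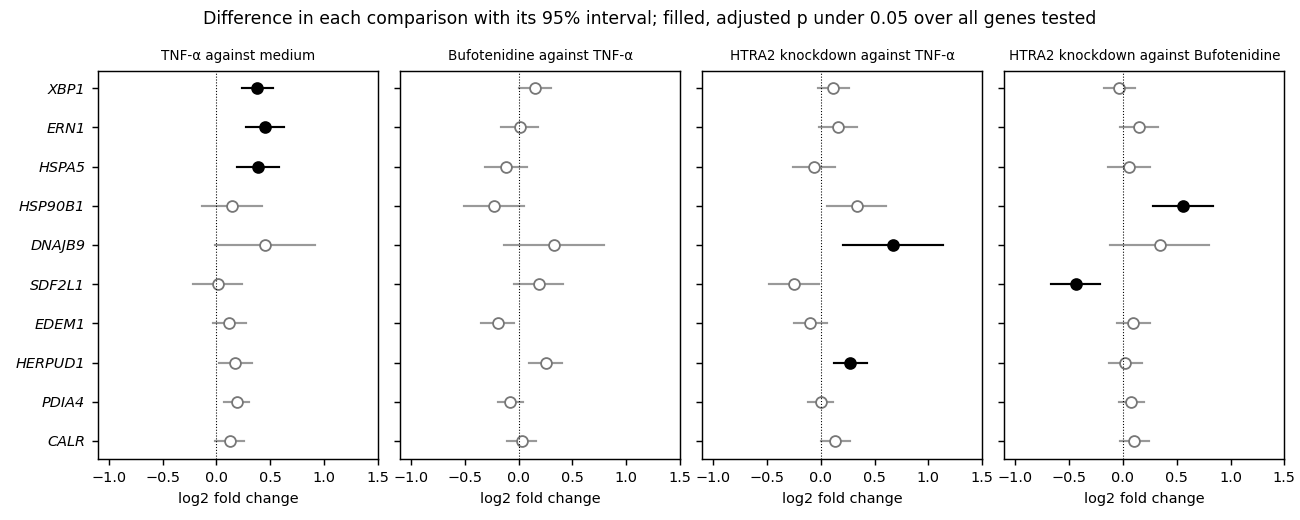
Log2 fold change (x axis) of the 10 genes in the 4 comparisons, with bars for 95% intervals and filled points for an adjusted p under 0.05 over all genes tested. Filled points are XBP1, ERN1 and HSPA5 for TNF-α, none for Bufotenidine, DNAJB9 and HERPUD1 for the knockdown against TNF-α, and HSP90B1 and SDF2L1 for the knockdown against Bufotenidine.

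The remaining folding genes moved least across groups. PDIA4 spanned a 1.14-fold range of group means and EDEM1 also 1.14, compared with 2.22 for DNAJB9, 1.55 for ERN1 and 1.44 for XBP1. CALR was 200, 210 and 196 FPKM in medium, 213, 220 and 226 FPKM with TNF-α, 221, 231 and 220 FPKM with Bufotenidine and 235, 233 and 257 FPKM in the knockdown. The knockdown libraries of CALR lay above all others, with differences of 0.14 ± 0.06 from TNF-α (adjusted p = 0.147) and 0.11 ± 0.06 from Bufotenidine (adjusted p = 0.259). Under quantile normalization these became 0.24 (adjusted p = 0.00624) and 0.26 (adjusted p = 0.00494). With the GC correction they were 0.13 (adjusted p = 0.0604) and 0.20 (adjusted p = 0.0140).

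Over the 12 libraries, XBP1 and HERPUD1 had a Pearson r of 0.91 on the log2 scale and XBP1 and ERN1 0.89, whereas XBP1 and HSP90B1 had 0.29, XBP1 and SDF2L1 0.11 and XBP1 and EDEM1 -0.08. The order of these pairs was not the same after the group means were removed, when r was -0.10 for XBP1 with ERN1, 0.61 with SDF2L1, 0.19 with HSP90B1 and -0.05 with EDEM1. Within groups r was also 0.85 for HSP90B1 with EDEM1, 0.82 for HSP90B1 with DNAJB9 and 0.74 for XBP1 with HERPUD1. HSPA5 was most like PDIA4 among the members (r = 0.86). Many other genes had a higher r over the 12 libraries. Among 11185 genes with a mean of at least 1 FPKM, HERPUD1 had rank 99 and ERN1 rank 174 for XBP1. PDIA4 had rank 34 for HSPA5. These correlations and ranks are descriptions over libraries that share 4 treatments and differ in GC dependence. Among genes that are not members and had a mean of at least 1 FPKM, the closest to XBP1 were MSC (r = 0.97), ADAM8, KCTD11 and ANKZF1 (r = 0.96). MSC averaged 1.58 FPKM in medium, 6.22 with TNF-α, 8.95 with Bufotenidine and 9.19 in the knockdown. The 5 closest to HSPA5 were CHD4 (r = 0.95), SELENOS, FAM84B, SPIRE1 and CRAMP1 (r = 0.92), of which SELENOS encodes an ER membrane protein of the degradation machinery. By Spearman rank correlation, none of these 4 was among the 5 closest to XBP1, and 2 of the 5 remained for HSPA5.

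Genes outside the 10 were counted in 6 lists of related function. The list counts for TNF-α against medium stand beside the 3.22% and 0.885% of all genes called higher and lower. With TNF-α, 1 of 25 further ER chaperones and folding enzymes rose: DNAJC3, a co-chaperone of BiP, went from 3.42 to 4.92 FPKM (log2 fold change 0.53 ± 0.13, adjusted p = 0.0425). None of 21 ERAD genes, 10 sensor and protease genes or 26 translocon and COPII genes was called in either direction, with list medians of 0.07, 0.06 and 0.07 and with 5, 2 and 3 genes at an unadjusted limma p under 0.05, a limit that 14.8% of all genes tested passed. In the PERK-ATF4 branch, 4 of 13 genes rose and none fell. The secreted glycoprotein STC2 went from 19.0 to 27.6 FPKM (0.54 ± 0.10, adjusted p = 0.00722), the transcription factor CEBPB from 119 to 165 FPKM and ATF3, a stress-induced factor, from 5.48 to 7.25 FPKM. Of 12 cytosolic heat shock chaperones 1 fell, DNAJB1, from 92.9 to 76.7 FPKM (-0.28 ± 0.07, adjusted p = 0.0459). With Bufotenidine against TNF-α, no gene of any of the 6 lists was called, although 39 of their 107 tested genes had an unadjusted limma p under 0.05, against 20.1% of all genes tested.

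In the knockdown against TNF-α, the ER chaperone, ERAD, secretory and PERK-ATF4 lists had calls in both directions, the sensors and proteases had higher calls alone and the cytosolic chaperones lower calls alone. These counts stand beside the 9.35% and 8.08% of all genes called higher and lower. Of the 25 further ER chaperones and folding enzymes, 3 rose and 2 fell. The disulfide isomerase P4HB went from 145 to 187 FPKM (0.37 ± 0.07, adjusted p = 0.00337) and the BiP exchange factor SIL1 from 11.0 to 13.9 FPKM, while calnexin, CANX, went from 135 to 106 FPKM (-0.36 ± 0.09, adjusted p = 0.0205). In ERAD, 3 of 21 rose, with the lectin OS9 from 28.4 to 36.3 FPKM and the mannosidase MAN1B1 from 17.1 to 21.8 FPKM, and 3 fell, with the ubiquitin-conjugating enzyme UBE2G2 from 7.29 to 5.50 FPKM. Among the sensors and proteases 3 of 10 rose and none fell: EIF2AK3, which encodes PERK, went from 2.45 to 3.74 FPKM (0.59 ± 0.12, adjusted p = 0.00474), ATF6B from 39.7 to 54.8 FPKM and the site-1 protease MBTPS1 from 15.5 to 18.2 FPKM.

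The secretory list had 2 higher and 3 lower genes of 26 in that comparison, with the signal peptidase subunit SEC11C falling by 0.65 on the log2 scale, SSR3 falling from 31.8 to 25.1 FPKM and the COPII coat gene SEC31A rising from 10.7 to 13.0 FPKM. In the PERK-ATF4 branch 1 of 13 rose and 3 fell. ATF3 went from 7.25 to 11.4 FPKM (0.65 ± 0.07, adjusted p = 7.55e-05), the cystine transporter SLC7A11 from 8.23 to 5.08 FPKM and STC2 from 27.6 to 21.2 FPKM. Of the 12 cytosolic heat shock chaperones 6 fell and none rose. HSP90AA1, the cytosolic HSP90, went from 380 to 218 FPKM (-0.81 ± 0.11, adjusted p = 0.000430) and the inducible HSP70 genes HSPA1A and HSPA1B from 69.8 to 39.8 FPKM and from 44.0 to 29.4 FPKM. HSPA1A and HSPA1B are near-identical copies, so the division of reads between them is uncertain. The median of this list was -0.31 on the log2 scale, against 0.13 for the 10 members and -0.003 for all genes.

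Against Bufotenidine, the knockdown had 7 higher and 1 lower of the 25 further ER chaperones and folding enzymes. The oxidoreductase ERO1A went from 17.4 to 25.6 FPKM (0.54 ± 0.11, adjusted p = 0.00716), PDIA3 from 58.7 to 83.6 FPKM and the glycoprotein glucosyltransferase UGGT1 from 10.6 to 13.4 FPKM. ERAD had 4 higher and 3 lower of 21, with UBXN4, SEL1L and ERLEC1 the largest, and the sensors 3 higher of 10, with EIF2AK3, MBTPS2 and ATF6. The secretory list had 2 higher, among them SPCS2 from 9.51 to 14.7 FPKM, and 1 lower, SEC23B. The PERK-ATF4 branch had 2 higher and 5 lower of 13, with CHAC1, a glutathione-degrading enzyme, going from 8.90 to 4.26 FPKM (-1.07 ± 0.14, adjusted p = 0.000513) and TRIB3 from 21.9 to 14.5 FPKM. Of the cytosolic heat shock chaperones 5 of 12 fell, and HSPA8, the constitutive cytosolic HSP70, went from 324 to 227 FPKM. These list counts stand beside the 7.85% and 7.43% of all genes called higher and lower, and the log2 fold changes of this comparison had an r of -0.35 with GC content.

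**Figure D5:**
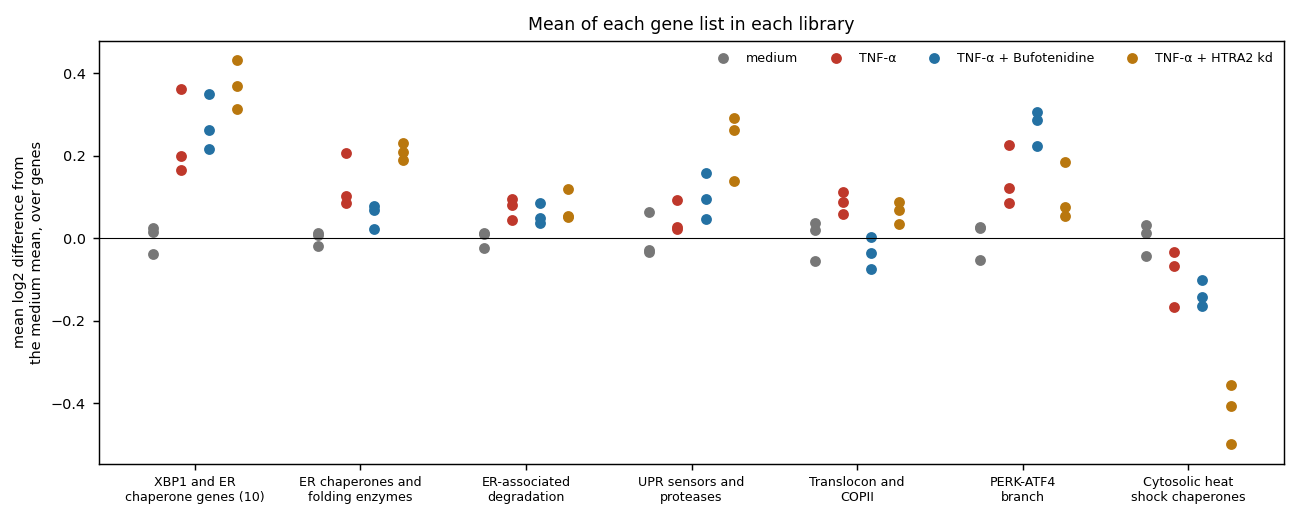
Mean log2 difference from the medium mean (y axis) over the tested genes of each list (x axis), with 1 point per library and colours for groups. The 10 members lie between 0.16 and 0.43 in the libraries given TNF-α, and the cytosolic heat shock chaperones between -0.50 and -0.36 in the knockdown.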

How the data were processed

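The authors deposited a table of FPKM for 58735 genes in 12 libraries (NEBNext Ultra RNA kit, poly(A) selection, no strand marking). Per the labels and the submitters' processing notes, CASAVA 1.8, HISAT2 2.0.4 and HTSeq 0.9.1 were used with hg38, and 58690 of the genes had the coordinates of GENCODE 29. Groups came from the labels. FPKM multiplied by gene length gave whole multiples of 1 read in 100% of values within a tolerance of 0.1, which gave the depth of 31008429 to 37624399 reads. Counting error alone is small at these reads except for DNAJB9 (120 to 497 reads) and, to a lesser degree, ERN1 (827 to 1504 reads). It was not compared with the spread between libraries.

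Values were analysed as log2(FPKM + 0.1), a scale that understates changes of low genes, in limma 3.58.1 (R 4.3.3) with all 4 groups in 1 fit (8 residual degrees of freedom, trended eBayes), a filter of mean FPKM of at least 0.1 and Benjamini-Hochberg adjustment over 18079 genes. Tests are two-sided. An exact permutation test of 3 against 3 cannot go below p = 0.1, so single-gene permutation values are not given. The fit was tested on simulated data. The 10 genes, the lists and the tests were chosen with earlier results of these data known. All 10 members are named. From each list at most 3 genes per comparison were named, those with the largest log2 fold change among genes with a mean of at least 1 FPKM and an adjusted p under 0.05. The 5 genes nearest to XBP1 and to HSPA5 were taken by Pearson r, of which 1 is not reported here. Alternatives were pseudocounts of 1 and 0.01, no filter, a mean of at least 1 FPKM, median-of-ratios scaling, quantile normalization, a fit to only the 2 groups compared, no trend, the replicate number as a block, voom on recovered reads, each library left out and, added after the data were seen, removal of a lowess trend on GC content from each library. GC content was available for 18070 of the genes tested. Replicate numbers showed no clear pairing: over 18 pairs of same-numbered libraries the correlation of deviations was -0.37 to 0.15, with 5 over 0.1. Between medium and TNF-α it was 0.06, 0.14 and 0.15. Because single libraries differ in GC dependence, these values cannot exclude a pairing.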

Additional observations from a re-analysis of the deposited data

How the results depend on the processing

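Of 680 values of the 10 genes under 11 settings with all libraries and with each library left out, 620 kept their direction and their side of the threshold, 30 lost the call, 7 gained it and 23 changed sign. The number of members called for TNF-α against medium went from 3 to 0 when only the 2 groups were fitted and was 2 to 3 with a library left out. It was 2 with no filter, quantile normalization, no trend or the replicate block. With the GC correction it was 4, as PDIA4 also passed (0.20, adjusted p = 0.0411). For the knockdown against TNF-α it went from 2 to 1 with a pseudocount of 0.01, with no filter and with no trend, to 0 with only the 2 groups, to 4 with the GC correction added after the data were seen, and was 0 to 3 with a library left out. Under quantile normalization it was 3, with CALR added. For the knockdown against Bufotenidine it was 0 to 2 with a library left out and 3 under quantile normalization, again with CALR. With the GC correction it was 2, as CALR passed (0.20, adjusted p = 0.0140) and SDF2L1 did not. In Bufotenidine against TNF-α it was 0 throughout. XBP1 and ERN1 lost the TNF-α call only in the 2-group fit (adjusted p = 0.0677 and 0.0525). The cause of these changes was not tested.

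Some values changed sign. For SDF2L1 with TNF-α the log2 fold change was -0.035 under quantile normalization, -0.0043 with voom and -0.090 to 0.12 with a library left out. Against TNF-α, Bufotenidine gave ERN1 -0.024 with voom, -0.026 with the GC correction and -0.022 to 0.049 with a library left out, CALR -0.025 under quantile normalization, -0.0065 with voom and -0.066 with the GC correction, and SDF2L1 -0.032 with the GC correction, from 0.19 as reported. For the knockdown against TNF-α, PDIA4 was -0.0038 with voom and -0.023 to 0.027 with a library left out, and HSPA5 -0.13 to 0.024. For the knockdown against Bufotenidine, XBP1 was 0.019 under quantile normalization, and with a library left out HERPUD1 was -0.0036 to 0.071 and HSPA5 -0.0069 to 0.098.

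Genes called over all genes numbered 742 for TNF-α against medium, 392 with only the 2 groups and 1146 with the GC correction. For Bufotenidine against TNF-α they numbered 7, and 911 with only the 2 groups, 236 with voom, 127 with a mean of at least 1 FPKM, 15 with median of ratios, 4 under quantile normalization, 3 with a pseudocount of 1, 1 with no trend or with the block, and 1 to 5 with a library left out. For the knockdown they were 3152 against TNF-α (2015 to 3337 with a library left out) and 2762 against Bufotenidine (1314 to 2706). With the replicate number as a block, 2 members were called for TNF-α, HSPA5 dropping out (adjusted p = 0.0640), and the block ended no other member's call. The libraries share only a number, so the block is not known to be a pairing.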
